A study of Mus musculus with 4 samples.

Results

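Bilberry extracts were compared with delphinidin and cyanidin, 2 of the pure anthocyanidins that occur in bilberry, in 3T3-L1 cells on day 2 of differentiation. The comparison used 3 of the 4 arrays of the series (bilberry, delphinidin and cyanidin). The DMSO array took no part in it, and its values are given beside the results. 3T3-L1 is a clonal mouse fibroblast-like line that stores fat as adipocytes do once hormones have induced it. All cells had received insulin, dexamethasone and IBMX, a phosphodiesterase inhibitor, on day 0, and every condition contained 0.1% DMSO. The bilberry cells received 100 μg/mL of extracts, and the other cells received 100 nM of delphinidin or 100 nM of cyanidin. These doses are in different units and were not matched, so dose and composition cannot be told apart. The extracts hold other compounds besides anthocyanidins. The question addressed was how far the transcripts of cells given the extracts differed from those of cells given a single anthocyanidin.

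Anthocyanidins are the sugar-free cores of anthocyanins, the red and blue flavonoid pigments of berries. Delphinidin carries an additional hydroxyl group on its B ring compared with cyanidin. Induced 3T3-L1 cells re-enter the cell cycle for a phase of clonal expansion before they exit it and express the genes of lipid storage. Transcripts of DNA replication and histones, made in S phase, and of mitosis can therefore be read beside those of adipogenesis on day 2.

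With 1 array per condition there is no replicate check of any value, and no test or p-value is given. The signals were the scanner software's processed intensities, divided by the 75th percentile of the same array and converted to log2. A level of 0 thus means the 75th percentile of the spots. This percentile was 576 with bilberry, 1009 with delphinidin, 1016 with cyanidin and 861 with DMSO. Within an array, the SD between spots of the same probe, as a median over the probes spotted repeatedly, lay between 0.03 and 0.04 on the log2 scale and does not cover differences between cultures. A probe was compared when its unmarked spots were well above background on all 3 arrays, which held for 21817 of 41174 probes and gave 12119 named genes. The spike-in control RNAs were brighter with bilberry before scaling, by a median log2 difference of 0.94 from the anthocyanidins, and the part of this in the differences below was not tested. A gene was represented by its compared probe with the highest mean level. All 8 preadipocyte markers examined, among them Pdgfra, Thy1 and Vim, were well above background on all arrays, as were 8 of 9 adipocyte markers. Leptin was the exception. None of 4 endothelial markers was well above background on any array, Kdr included. Of 5 macrophage markers only Cd68 and Csf1r were, and of 4 skeletal muscle and 4 epithelial markers only Des and Krt8. The compared levels of these other markers were between -5.86 and -3.49 over the 4 arrays, far below the 75th percentile. In bulk RNA, fewer cells of a type and less RNA per cell cannot be told apart.

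The bilberry array stood apart from both anthocyanidin arrays at many more probes than these arrays did from each other. The signal was more than 2-fold higher with bilberry than with each anthocyanidin at 701 probes, 3.21% of those compared, and more than 2-fold lower at 787 probes, 3.61%. Normexp background correction gave 291 higher and 405 lower probes, and cyclic loess normalization gave 451 higher and 976 lower probes. Scaling to the spike-in control RNAs gave 14 higher and 19327 lower probes. The same count with delphinidin set against bilberry and cyanidin was 42 higher (0.193%) and 24 lower (0.110%) probes. With cyanidin set against bilberry and delphinidin it was 31 higher (0.142%) and 45 lower (0.206%) probes. DMSO was past 2-fold of each anthocyanidin at 135 higher (0.630%) and 58 lower (0.271%) of 21441 probes. Delphinidin and cyanidin, which differ by the B-ring hydroxyl, were given at the same dose and time, and their levels differed by more than 2-fold at 187 of the 21817 probes. The SD of their log2 difference over probes was 0.28, against 0.60 for bilberry minus the mean of both. The bilberry value lay between the anthocyanidin values at 2646 probes.

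**Figure D1:**
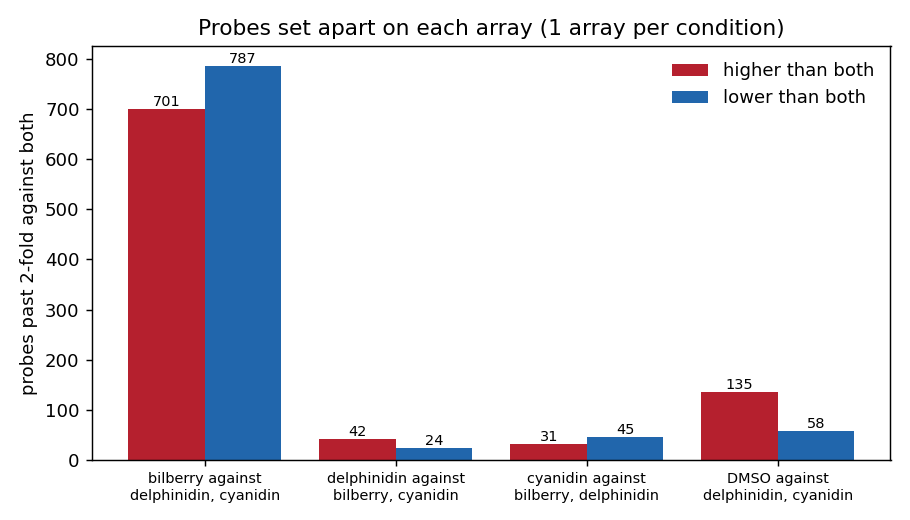
Number of probes more than 2-fold higher (red) or lower (blue) on the named array than on both arrays it was set against, with 1 array per condition. Bilberry had 701 higher and 787 lower probes, whereas delphinidin and cyanidin had 24 to 45 in each direction.

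At the level of genes, 235 were more than 2-fold higher with bilberry than with each anthocyanidin (1.94% of 12119) and 400 were lower (3.30%). In the text, the log2 difference of a gene is bilberry minus the mean of delphinidin and cyanidin. Its median was 0.16 over all genes compared. Scaling to the spike-in controls moved this median to -1.62. The median of a list is therefore also given relative to the median gene, whereas calls past 2-fold and the differences of single genes are on the unshifted scale. Most genes that were lower than with each anthocyanidin were also lower than with DMSO. Of the 396 lower genes that were well above background with DMSO, 357 were more than 2-fold below DMSO, and of 219 such higher genes 146 were more than 2-fold above it. The genes were chosen by the same bilberry values that enter this comparison, so these counts are no separate check of the calls. The share over all genes is not given.

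The counts by signal level are bounded by the detection rule. The lowest level well above background was -5.47 with bilberry and -6.54 with delphinidin, so a dim probe more than 2-fold lower with bilberry could fall below detection and leave the comparison, and the 1632 probes detected with both anthocyanidins but not with bilberry were not compared. The split between higher and lower among dim probes is therefore no measure of direction. Among the dimmest of 10 bins of compared probes, 249 probes were higher and 8 were lower, with a median difference of 0.47. In the brightest bin, 29 were higher and 24 were lower, and the median difference was 0.28. Lower probes were most frequent at middling levels, with 6.23% in bin 4 and 5.82% in bin 5, counted from the dimmest. Of the genes past 2-fold, 43 of the 235 higher and 179 of the 400 lower ones had a mean level over the 3 arrays at or above the 75th percentile. Of all 12119 genes compared, 7139 did, a larger share than in either direction.

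**Figure D2:**
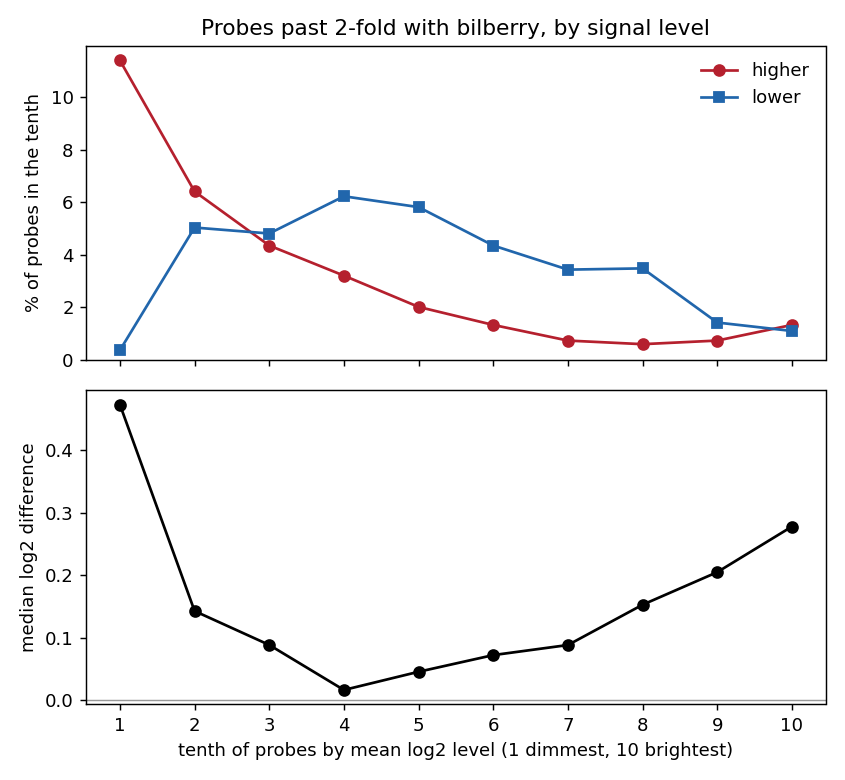
Upper panel, share of probes (%) more than 2-fold higher (red) or lower (blue) with bilberry than with each anthocyanidin, over 10 bins of the compared probes ordered by mean log2 level over the 3 arrays. Lower panel, median log2 difference, bilberry minus the mean of both anthocyanidins, which was 0.47 in the dimmest bin and 0.02 in bin 4, with the dimmest bins bounded by the detection rule.

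The gene with the widest gap below both anthocyanidins was Mki67, and 5 of the 12 such genes belong to mitosis. The level of Mki67, the proliferation antigen that coats mitotic chromosomes, was -0.41 with bilberry, 3.51 with delphinidin, 3.23 with cyanidin and 2.91 with DMSO, and bilberry was the low array of the 4. Its difference was -3.78, a 13.8-fold lower level than the mean of the anthocyanidins. The other compared Mki67 probe had a difference of -3.79. Cenpe, the kinesin that links kinetochores to microtubules, had levels of 0.52 with bilberry, 4.27 with delphinidin, 3.85 with cyanidin and 4.00 with DMSO. Cenpe was 11.6-fold lower with bilberry, while the other 3 arrays lay close together. Kif20b, a kinesin of cytokinesis, was 10.2-fold lower and Cenpf, a kinetochore protein, 7.85-fold. Relative to the median gene, the log2 difference of Kif20b was -3.52 and shrank to -1.78 under normexp background correction. Smc4, a subunit of the condensin complex that compacts chromosomes, had levels of 1.89 with bilberry, 4.87 with delphinidin, 4.55 with cyanidin and 4.69 with DMSO. Both Smc4 probes were lower, with differences of -2.82 and -2.42.

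The remaining genes among the 12 with the widest gap below both anthocyanidins had other roles. Ankrd12, an ankyrin-repeat nuclear protein, had levels of -1.22 with bilberry, 2.43 with delphinidin, 2.37 with cyanidin and 2.41 with DMSO. Its probes did not move alike: 2 of the 4 compared had differences of -3.62 and -3.09, and the other 2 had -0.58 and -0.37. Hmgn5, which binds nucleosomes and linker histones, had levels of -2.51 with bilberry, 1.45 with delphinidin, 1.05 with cyanidin and 1.11 with DMSO, and its other probe was lower by a similar amount. Akap9, which anchors protein kinase A at centrosomes and the Golgi, had a difference of -2.70. Ppig, a cyclophilin found with splicing factors, had -2.81. Cntln, Sclt1 and Ccdc66, which belong to centrosomes, centrioles and cilia, had differences of -2.82, -2.68 and -2.89. Relative to the median gene these became -1.88, -1.86 and -1.29 under normexp, and Sclt1 was at -1.22 when a band of array rows was left out. In all 12 genes the DMSO level lay within 0.52 of the mean of the anthocyanidins, and the bilberry array was the lowest of the 4.

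Across the mitosis list, 19 of 70 genes compared were more than 2-fold lower with bilberry than with each anthocyanidin and none was higher, beside 3.30% of all genes in the lower direction. The median difference was -0.37, or -0.53 relative to the median gene, and 56 genes lay below that median gene. Over the alternative settings the relative median ranged from -0.70 to -0.39, but the count of lower genes was 10 under normexp, 12 with probes above the 25th percentile, 7 with probes at or above the 75th percentile (chosen after seeing the data), 25 against delphinidin alone and 70 under spike-in scaling. The list split by gene rather than moving as a whole. Hmmr, Kif15 and Ndc80, genes of spindle assembly and kinetochores, had differences of -2.21, -2.14 and -1.88. Top2a, the topoisomerase that untangles sister chromatids, was at the threshold with -1.07. Several mitotic kinases and regulators sat at the other end, but not all did. The spindle checkpoint kinase Ttk had -1.19, Bub1 -0.48, Incenp -0.41 and Mad2l1 -0.24. Plk1, the polo-like kinase, had levels of 3.40 with bilberry, 3.19 with delphinidin, 3.04 with cyanidin and 2.42 with DMSO. Its bilberry level was the highest of the 4 and DMSO the lowest. Cdc20, an activator of the anaphase-promoting complex, had levels of 4.67 with bilberry, 4.52 with delphinidin, 4.36 with cyanidin and 3.82 with DMSO. Aurka, Aurkb, Cdk1 and Ccnb1 had differences of 0.22, 0.42, 0.20 and -0.02. DMSO was also below the anthocyanidins over this list, by a median difference of -0.56, and 9 of the 19 lower genes were also past 2-fold below DMSO. The bilberry differences ran from -3.78 to 0.54. The median was -0.53 against delphinidin and -0.24 against cyanidin.

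**Figure D3:**
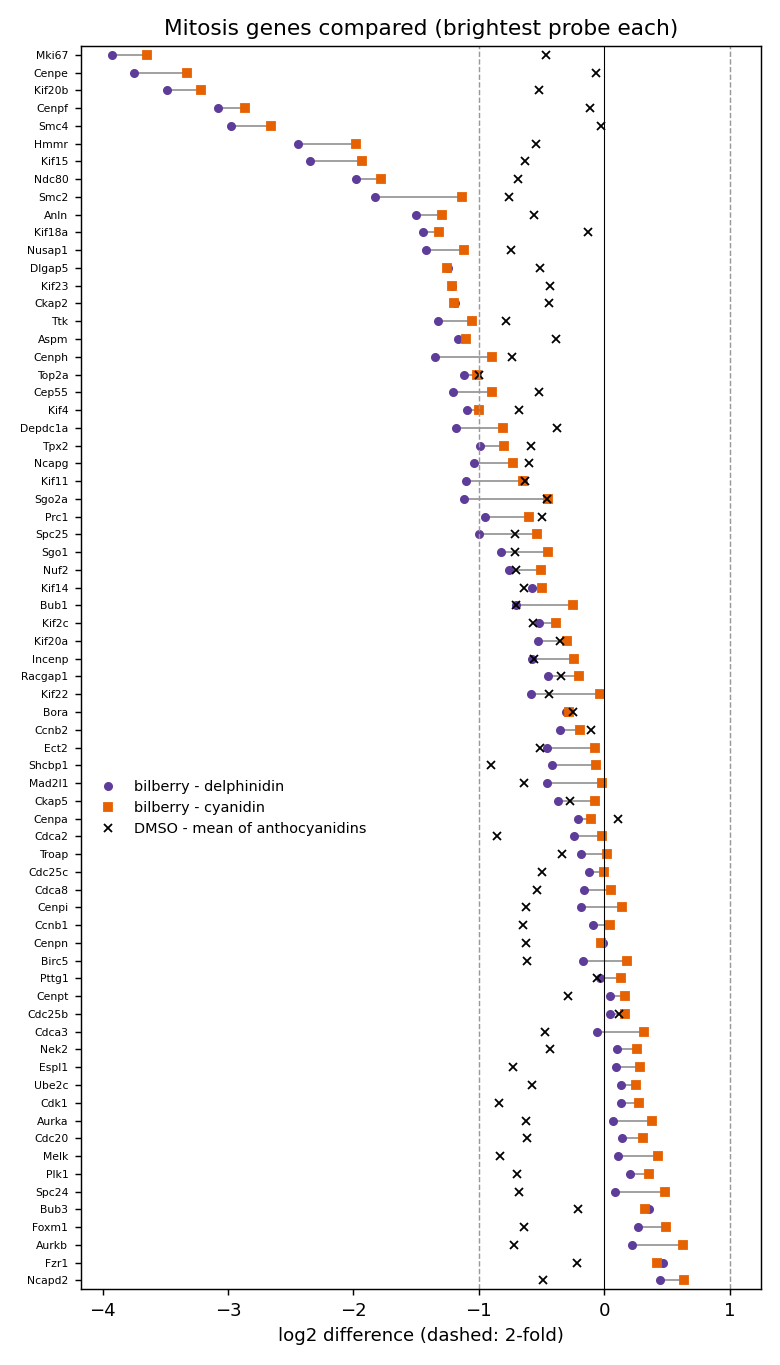
Log2 difference of the 70 mitosis genes compared, each by its brightest probe, as bilberry minus delphinidin (circles), bilberry minus cyanidin (squares) and DMSO minus the mean of both anthocyanidins (crosses). Dashed lines mark 2-fold, 19 genes lie past the left line against both, and none lies past the right line.

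The promoters of 4 of these genes are shown because they contrast members that were low with bilberry (Mki67, Cenpe) with members that were not (Plk1, Cdc20). Each sequence is the RefSeq window of 250 bases before to 50 bases after the gene's start on GRCm38.p6, read 5′ to 3′ on the strand of the gene. Capitals mark TTTGAA (or TTCAAA on the other strand), the core of the cell cycle genes homology region of many mitotic promoters, and CCAAT (or ATTGG), the box bound by NF-Y. Matches of the 2 motifs do not overlap in these windows.
Mki67, chr7:135716330-135716629, minus strand: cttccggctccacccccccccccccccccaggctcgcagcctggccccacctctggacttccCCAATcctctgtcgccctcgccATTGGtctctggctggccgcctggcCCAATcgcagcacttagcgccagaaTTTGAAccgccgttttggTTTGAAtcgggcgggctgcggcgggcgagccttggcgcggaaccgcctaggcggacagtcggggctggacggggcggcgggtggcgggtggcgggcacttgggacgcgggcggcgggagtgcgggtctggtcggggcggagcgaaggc
Cenpe, chr3:135212313-135212612, plus strand: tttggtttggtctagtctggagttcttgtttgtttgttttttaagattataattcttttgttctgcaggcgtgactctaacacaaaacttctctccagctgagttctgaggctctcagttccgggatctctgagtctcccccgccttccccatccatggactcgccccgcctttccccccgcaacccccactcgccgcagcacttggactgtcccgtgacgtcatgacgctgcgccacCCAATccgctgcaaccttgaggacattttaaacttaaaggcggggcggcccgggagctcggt
Plk1, chr7:122159185-122159484, plus strand: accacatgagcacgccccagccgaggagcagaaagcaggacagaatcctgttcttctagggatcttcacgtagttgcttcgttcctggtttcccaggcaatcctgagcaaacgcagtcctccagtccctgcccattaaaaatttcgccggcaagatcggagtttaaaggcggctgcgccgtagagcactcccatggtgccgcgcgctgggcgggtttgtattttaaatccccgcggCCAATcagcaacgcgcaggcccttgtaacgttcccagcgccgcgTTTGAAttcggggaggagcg
Cdc20, chr4:118437294-118437593, minus strand: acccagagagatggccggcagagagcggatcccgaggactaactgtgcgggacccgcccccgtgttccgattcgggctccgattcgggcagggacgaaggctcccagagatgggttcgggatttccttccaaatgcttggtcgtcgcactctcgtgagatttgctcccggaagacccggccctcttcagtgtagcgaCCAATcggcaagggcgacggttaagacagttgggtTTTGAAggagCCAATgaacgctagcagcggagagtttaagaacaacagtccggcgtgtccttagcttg
The windows held 2 matches to TTTGAA in Mki67, 0 in Cenpe, 1 in Plk1 and 1 in Cdc20, and 3, 1, 1 and 2 matches to CCAAT. Over windows of the same length, 17.9% of 32851 mouse promoters held TTTGAA. Of the mitosis genes that were low with bilberry, 14 of 17 windows held it (82.4%), and of the other mitosis genes 29 of 46 (63.0%). CCAAT was held by 11 of 17 and 37 of 46 windows, beside 37.4% of all promoters. A promoter was found for 17 of the 19 low genes and 41 of the other 51. These are matches of letters and describe the windows only.

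Genes of DNA replication, which also belong to dividing cells, lay near the median gene. Of 65 genes compared, 1 was lower and none was higher, beside 3.30% and 1.94% of all genes. The lower gene was Rfc1, the large subunit of the clamp loader, at 1.26 with bilberry, 2.97 with delphinidin, 2.91 with cyanidin and 2.70 with DMSO. The median difference was 0.10, close to the 0.16 of all genes. It was -0.08 against delphinidin and 0.26 against cyanidin. DMSO was -0.69 from the mean of the anthocyanidins by the same median, so on this list bilberry lay near the anthocyanidins rather than near DMSO. The G1 cyclins and CDK inhibitors had no gene past 2-fold among 19, with a relative median of -0.02.

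Among probes grouped by their description, some groups held many that were lower with bilberry. The groups were formed by words of the file's gene descriptions after the values had been seen, and are counted by probe beside the 3.61% of all probes. The structural maintenance of chromosomes proteins, the long ATPases of condensin, cohesin and the Smc5/6 complex, were lower at 9 of 10 probes. All 5 genes had a lower probe, and Smc1a of cohesin had differences of -1.86 and -1.68. The remaining probe, of Smc6, had -0.87. The golgins, coiled-coil proteins that tether vesicles to the Golgi, were lower at 12 of 18 probes. Golga4 and Golgb1 had differences of -2.33 and -2.10 at their lowest probes, and Golga2 and Golga7 had -0.10 and 0.09. Probes described as nucleolar were lower at 17 of 54 probes, among them all 3 of Esf1 and all 3 of Mphosph10, factors of ribosomal RNA processing. Nop10 and Nhp2, small subunits of the box H/ACA particle, had 0.40 and 0.43, whereas Gar1, also described as nucleolar, had -0.60. Probes described as centrosomal were lower at 8 of 25 probes, with Cntrl, or centriolin, lowest at -2.49. One of these probes was of Eif3a, a translation initiation factor that the word match brought in. Normexp reduced the lower probes to 6 for the chromosome proteins and 4 for the centrosomal group. Under 5 other scalings the medians of these families stayed below that of all genes. They ranged over those scalings from -1.77 to -1.48 for the chromosome proteins, -1.49 to -1.28 for the golgins and -0.64 to -0.41 for the nucleolar proteins.

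Where a lower gene had a further probe, that probe was often lower too. Of 195 lower genes with a further probe compared, 117 were past 2-fold at the next brightest probe as well, and 88 were so at all their probes. The next brightest probe was lower in 4.08% of all 5117 genes with at least 2 probes. Of 45 higher genes with a further probe, 4 (8.89%) were past 2-fold there, beside 2.05% of all genes. The position of a probe along its gene went with its difference. For 3782 genes with compared probes at least 300 bp apart on mm8, the difference of the upstream probe minus that of the downstream probe had a median of 0.04. In the 946 genes with the widest distance, from 18566 bp up, the median was 0.37 and 73.6% of pairs were above 0. In the 947 genes with the closest pair it was -0.06. The same medians over the widest pairs were 0.09 for DMSO minus the anthocyanidins and 0.11 for delphinidin minus cyanidin. Among the 156 widest pairs whose probes were within 1 log2 unit of level, the bilberry median was 0.39, beside 0.05 for DMSO and 0.10 for delphinidin minus cyanidin. Among the 149 paired genes that were lower with bilberry the bilberry median was 0.58, beside -0.04 for DMSO and 0.09 for delphinidin minus cyanidin. The 3633 other genes had 0.03. In the lower genes the upstream minus the downstream level had a median of -1.87. Lower genes were called by their brightest probe, so the call itself bears on this contrast. The part of probe position in the lower values was not tested.

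The genes with the widest gap above both anthocyanidins had low levels on the other arrays. Olfr399, an odorant receptor, had levels of -1.60 with bilberry, -5.43 with delphinidin, -6.16 with cyanidin and -6.10 with DMSO, and was not well above background with DMSO. Cacna1a, the pore of a neuronal calcium channel, had levels of -2.19 with bilberry, -5.85 with delphinidin, -6.24 with cyanidin and -5.86 with DMSO. Adra1a, an alpha-1 adrenergic receptor, had levels of -2.10 with bilberry, -5.77 with delphinidin, -5.76 with cyanidin and -5.18 with DMSO. In each of these 3 the bilberry array was the only one above -5. Aspg, an asparaginase, and Lpar5, a lysophosphatidic acid receptor, were 12.8-fold and 8.69-fold higher. Cyp46a1, the cholesterol 24-hydroxylase known from neurons, was 6.98-fold higher. Fbxo27, Srcin1, Pde6h, Shtn1, Olfr1419 and Kcnh3 were 5.38-fold to 6.35-fold higher. These folds were smaller under normexp, where the log2 differences of all 12 genes relative to the median gene lay between 1.09 for Srcin1 and 2.21 for Olfr399. The main values of these 2 genes were 2.44 and 4.03. The level of Shtn1, or shootin, was -3.48 with bilberry, -5.72 with delphinidin, -6.43 with cyanidin and -2.64 with DMSO, so DMSO exceeded bilberry there. Of the 12 genes, Aspg and Pde6h had a further compared probe, with differences of -0.39 and 0.47. The other probes of Cacna1a, Adra1a and Srcin1 were not well above background with bilberry, at levels below -6. The Cacna1a probe was so with delphinidin at -6.38, and a Srcin1 probe was so with cyanidin at -4.25 and DMSO at -6.01. The Adra1a probe and a further Srcin1 probe were so on no array. Odorant receptors as a family were higher at 13 of 88 probes compared, beside 3.21% of all probes, at a median level of -4.75. This share of 14.8% was near the 11.4% of the dimmest bin of all probes, in which that level lies. Probes that the files describe as unclassifiable clones were higher at 179 of 1341 probes compared (13.3%) and lower at 34 (2.54%), at a median level of -3.37.

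Because dim probes led that order, the higher genes with anthocyanidin levels at or above the 75th percentile were ranked by themselves, a choice made after the values had been seen. H1f5, a linker histone, came first and is described with the histones. Rmrp, the RNA of RNase MRP, had levels of 3.92 with bilberry, 1.91 with delphinidin, 2.08 with cyanidin and 2.06 with DMSO, a 3.81-fold difference. Tagln, or transgelin, an actin-binding protein of smooth muscle and fibroblasts, had levels of 3.71 with bilberry, 2.14 with delphinidin, 1.61 with cyanidin and 2.39 with DMSO. Bilberry was the highest of the 4 arrays for both. The other Tagln probe was not compared, with -7.48 and not well above background with bilberry, and -6.42 and well above it with cyanidin. Syt10, a synaptotagmin, was 3.62-fold higher at a bright probe, and the other Syt10 probe was below the detection limit. Mink1, a Ste20 kinase, Arid5b and Arl4d were 3.40-fold, 3.16-fold and 3.20-fold higher, with differences of -0.62, 0.09 and 0.17 at their other compared probe. Maf, a leucine zipper transcription factor, was 2.73-fold higher at its brightest probe, and its other 3 probes had differences of -0.42 to 0.46. The probes of these 4 genes thus disagree. Khsrp, an RNA-binding protein of mRNA decay, was 2.59-fold higher, and its other probe had 0.66.

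Clustered histone genes were the list with the highest share of higher genes. These replication-dependent genes encode the bulk of nucleosomal histones, and their mRNAs end in a stem-loop in place of a poly(A) tail. How far the labeling of the RNA captured mRNAs without such a tail was not tested. Of 25 genes compared, 7 were more than 2-fold higher with bilberry than with each anthocyanidin (28.0%, beside 1.94% of all genes) and none was lower. H1f5 had levels of 3.08 with bilberry, 1.10 with delphinidin, 0.76 with cyanidin and -0.18 with DMSO. H2ac4, a core histone of the H2A type, had levels of 0.77 with bilberry, -1.14 with delphinidin, -1.48 with cyanidin and -2.23 with DMSO. In both, bilberry was the highest array and DMSO the lowest. H2ac15, H1f4 and H2ac10 had differences of 1.44, 1.41 and 1.20. H2ac20, with 1.13, and H2ac8, with 1.07, passed narrowly, and H2ac8 was dim. The list left out other clustered histones. By the files' descriptions, 10 of 28 histone cluster genes had a higher probe and none a lower one, H2ac13 with 1.56 and H2ac1 with 1.22 among them. The H2B genes lay lower in the list, with differences of -0.19 for H2bc4 and 0.21 for H2bc12. The median was 0.72, or 0.55 relative to the median gene, and 21 genes lay above the median gene. Over the alternative settings the relative median ranged from 0.46 to 0.63. The count of higher genes was 4 under cyclic loess and under quantile normalization, and under spike-in scaling it was 0 with 12 lower. DMSO was -0.16 from the anthocyanidins by the median. Many of these genes are near-identical copies, so a probe may read several of them.

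The median of the adipocyte genes was below that of all genes, and no gene was past 2-fold against each anthocyanidin, beside 3.30% lower and 1.94% higher of all genes. Of 24 genes compared, 20 lay below the median gene, with a median difference of -0.18, or -0.35 relative to all genes. This relative median ranged from -0.57 to -0.28 over the settings. Adipoq, the adipokine adiponectin, had levels of -0.86 with bilberry, 0.03 with delphinidin, 0.45 with cyanidin and 0.22 with DMSO. Its difference was -0.88 against delphinidin and -1.30 against cyanidin, past 2-fold only against cyanidin. Slc2a4, the insulin-responsive glucose transporter GLUT4, had levels of -2.75 with bilberry, -1.83 with delphinidin, -1.49 with cyanidin and -1.22 with DMSO. Retn, or resistin, had levels of 0.64 with bilberry, 1.63 with delphinidin, 1.83 with cyanidin and 1.71 with DMSO. In these 3 genes the bilberry array was the lowest of the 4. Fabp4, the fatty acid binding protein of adipocytes, had levels of 7.10 with bilberry, 7.85 with delphinidin, 8.01 with cyanidin and 8.05 with DMSO, and its 3 probes had differences of -1.23 to -0.75. Lpl, lipoprotein lipase, was -0.74 from the anthocyanidins and level with DMSO. Among lipid droplet and lipolysis genes the differences were 0.04 for Plin1, 0.07 for Lipe and 0.02 for Dgat2, while Mgll, monoglyceride lipase, had -0.69. Cav1, a caveolar coat protein, was the highest at 0.54.

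**Figure D4:**
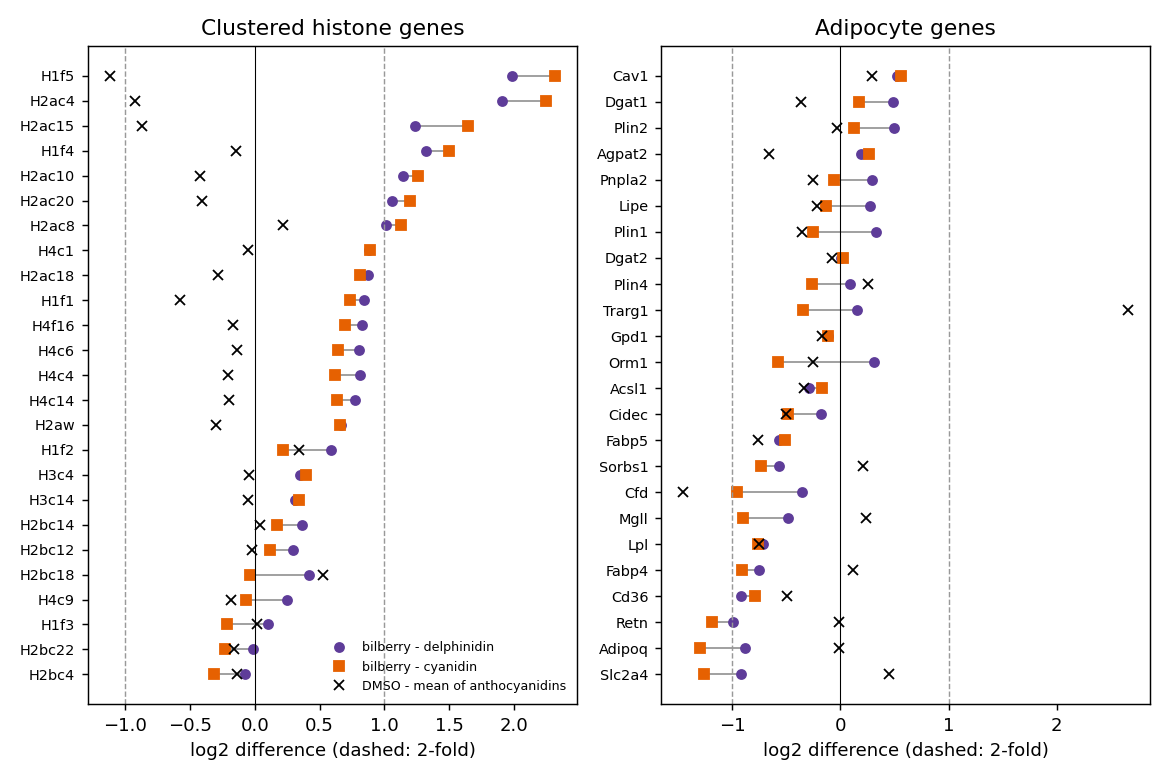
Log2 difference of 25 clustered histone genes and 24 adipocyte genes compared, as bilberry minus delphinidin (circles), bilberry minus cyanidin (squares) and DMSO minus the mean of both anthocyanidins (crosses), with 2-fold marked by dashed lines. A total of 7 histone genes lie past the right line against both, and no adipocyte gene lies past the left line against both.

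Of 20 transcription factors of adipogenesis compared, none was past 2-fold against each anthocyanidin, beside 1.94% higher and 3.30% lower of all genes, and the median relative to all genes was 0.09. Pparg, the master regulator of adipocyte differentiation, had levels of 4.16 with bilberry, 4.31 with delphinidin, 4.31 with cyanidin and 4.00 with DMSO. Its partner Cebpa had levels of 2.80 with bilberry, 2.49 with delphinidin, 2.61 with cyanidin and 2.29 with DMSO. Cebpb and Cebpd, the early factors induced by the hormones, were 0.73 and 0.54 from the anthocyanidins, with 0.44 at the other Cebpb probe. Relative to the median gene, Cebpb had 0.57 and Cebpd 0.38. At the lowest over the settings these were 0.20 and 0.06. Klf5 had a difference of 0.29, and Srebf1, the regulator of lipogenic genes, 0.42, with its DMSO spot marked as an outlier. Fasn, fatty acid synthase, had -0.09 at a probe with a level of -0.14 with bilberry. Its far brighter probe, at 7.27 with delphinidin, 7.25 with cyanidin and 6.95 with DMSO, had no unmarked bilberry spot and was not compared. The value of Fasn relative to the median gene turned from below to above 0 when marked spots were kept. The list of anti-adipogenic regulators had no gene past 2-fold among 20, and 15 lay above the median gene.

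In insulin signaling, 2 of 80 genes were higher and 1 was lower, shares of 2.50% and 1.25% beside 1.94% and 3.30% of all genes. The lower gene was Pik3ca, a catalytic subunit of PI3-kinase, at -0.36 with bilberry, 0.77 with delphinidin, 0.70 with cyanidin and 0.91 with DMSO. The higher genes were Foxo3, a transcription factor that Akt keeps out of the nucleus, at -3.34 with bilberry, -4.65 with delphinidin, -4.54 with cyanidin and -4.64 with DMSO, and Cblb, a ubiquitin ligase, at -3.10 with bilberry, -4.26 with delphinidin, -4.46 with cyanidin and -4.05 with DMSO. Both were dim probes. The other compared probes of Pik3ca and Foxo3 had differences of -0.41 and 0.44, within 2-fold. No gene was higher under normexp or with probes above the 25th percentile, and none was lower when each gene took the median of its probes. In the core of the pathway, the receptor Insr had a difference of -0.45, with 0.02 at its other probe. Its substrate Irs1 had 0.01, with -0.17 at the other probe, and Akt1 had 0.53. Prkaa1, the catalytic subunit of AMP-activated kinase, had 0.16, with -0.10 at its other probe. The list's median relative to all genes was 0.06.

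Lists of metabolism and stress had medians on either side of the median gene or close to it, with few genes past 2-fold against each anthocyanidin. Rpl21 of the ribosomal proteins was the only such gene among those described here. Hypoxia and glycolysis genes had a median of 0.41 relative to all genes, 0.26 to 0.51 over the settings, with 26 of 36 genes above the median gene. Slc2a1, the glucose transporter GLUT1, was the highest at 4.67 with bilberry, 3.71 with delphinidin, 3.06 with cyanidin and 3.17 with DMSO. It passed 2-fold against cyanidin but not against delphinidin. Aldoa, aldolase of glycolysis, had 0.92, and Vegfa, an angiogenic factor, -0.55. Cholesterol synthesis and uptake had a relative median of 0.24, with 0.87 for Dhcr7, a reductase late in the pathway, and -0.21 for Hmgcs1 at its start. Antioxidant genes under NRF2 had 0.20. Hmox1, heme oxygenase, had levels of 3.72 with bilberry, 3.09 with delphinidin, 2.40 with cyanidin and 1.86 with DMSO. Nfe2l2, which encodes NRF2, and Nqo1, its target, had differences of -0.41 and -0.30, opposite to Hmox1. The aryl hydrocarbon receptor, a sensor of planar aromatic compounds, and its targets gave -0.02 over 11 genes. This median ranged from -0.39 to 0.11 over the settings. Below the median gene, heat shock genes had a relative median of -0.23, which ranged from -0.38 to -0.09. Fatty acid and triglyceride synthesis had -0.14, which ranged from -0.14 to -0.004. Ribosomal proteins gave 0.22, which turned to -0.11 under quantile normalization and -0.02 under cyclic loess.

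**Figure D5:**
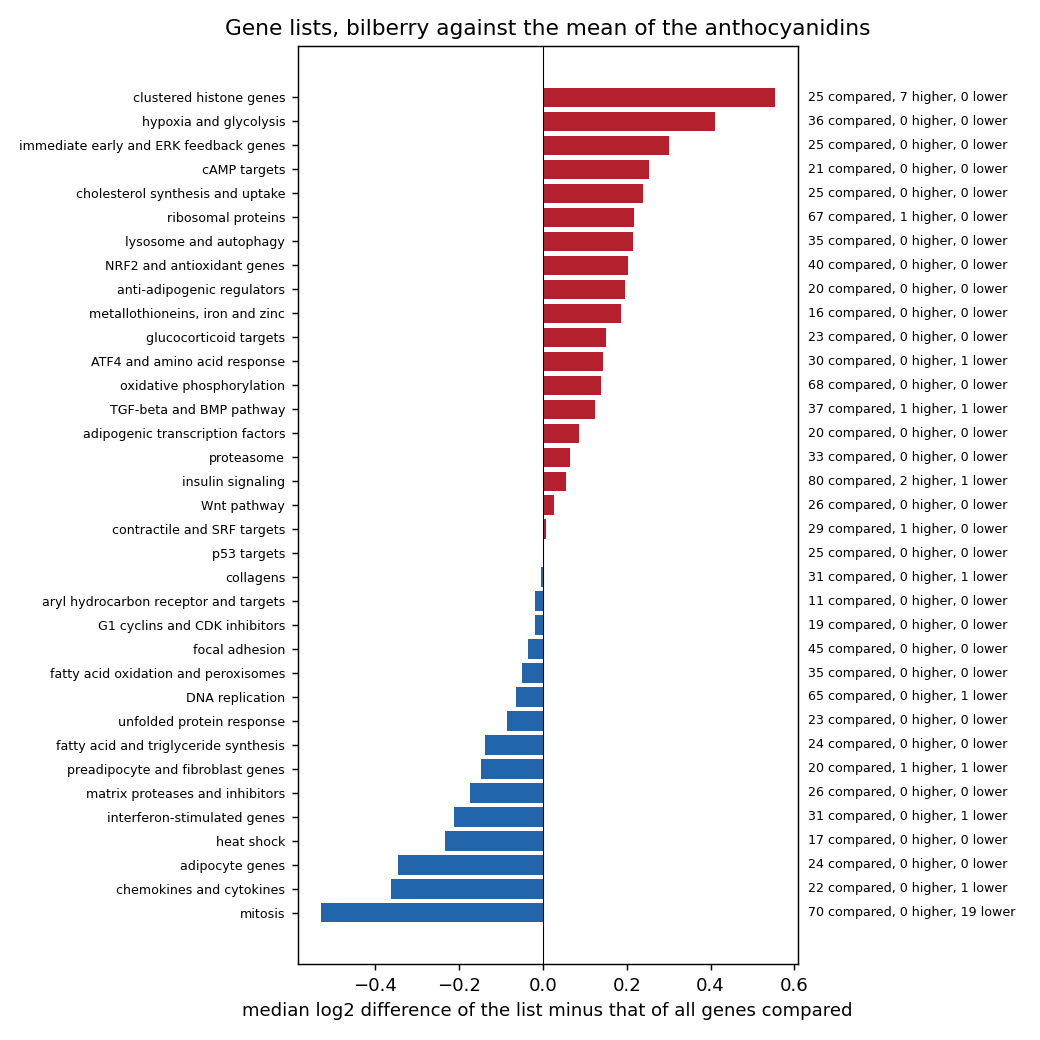
Median log2 difference of each of 35 gene lists, bilberry minus the mean of both anthocyanidins, after the median of all genes compared was subtracted, with the genes compared and the genes past 2-fold against each anthocyanidin on the right. Mitosis is lowest at -0.53 with 19 lower genes, and clustered histone genes are highest at 0.55 with 7 higher genes.

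Apart from mitosis and histones, no list had more than 2 genes past 2-fold in either direction, and 24 of 36 lists had none, beside 1.94% higher and 3.30% lower of all genes. Counts this small in lists of this size are not a result about the lists. Among preadipocyte and fibroblast genes, Postn, the matrix protein periostin, was lower at 3.90 with bilberry, 5.53 with delphinidin, 5.17 with cyanidin and 4.97 with DMSO, and Tagln was the higher gene. Collagens had Col7a1 of anchoring fibrils lower at 0.19 with bilberry, 1.55 with delphinidin, 2.08 with cyanidin and 2.61 with DMSO. In the TGF-beta and BMP pathway, Nog, the BMP antagonist noggin, was higher with 1.52, and Inhba, the activin subunit, was lower with -1.18. Actb, the reference gene of the RT-PCR, had levels of 5.41 with bilberry, 4.42 with delphinidin, 4.33 with cyanidin and 4.42 with DMSO, a difference of 0.99 against delphinidin and 1.07 against cyanidin. The files place this Actb probe on chromosome X, and the probe placed on chromosome 5 had 0.79.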

How the data were processed

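RNA of 3T3-L1 cells was labeled with Cy3 and hybridized to Agilent Whole Mouse Genome arrays, 1 per condition. The authors deposited Feature Extraction output, in which the processed signal is an intensity after subtraction of local background and spatial detrending within the array. The methods' division by the 75th percentile had not been applied to them. A further table, also deposited, repeats these intensity values (largest relative difference 0). Local background and mean signals, also deposited intensities, served normexp only.

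The deposited intensities were divided by the 75th percentile of the 43379 spots other than controls, and log2 was taken. Between 701 and 875 spots of an array carried an outlier mark and were dropped, 1422 probes had no other spot on at least 1 array, and spots were averaged by probe. A probe was called when it differed by over 2-fold from each anthocyanidin. Of the compared probes, 15540 were named by RefSeq accession (GRCm38.p6), 2746 by symbol, 1060 by synonym and 2471 not at all. Named genes are the 12 with the largest smaller difference in each direction, up to 5 called members of a list, and genes of interest to the study. The members and lists were chosen with earlier results of these data known. With 1 array per condition no test was made, and the number of arrays limits precision. Alternatives were 5 scalings, 6 sets of probes, 3 references, thresholds of 1.5 and 3, the deposited table and other probe rules for lists. Python 3.11.15, numpy 2.4.6, pandas 2.3.3, R 4.3.3 and limma 3.58.1 were used.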

Additional observations from a re-analysis of the deposited data

Results flagged for a closer look

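The spike-in control RNAs, which take no part in the comparison, had a higher signal on the bilberry array. Before scaling, bilberry minus the mean of the anthocyanidins was 0.94 on the log2 scale as a median over 10 controls, against -0.04 for delphinidin minus cyanidin. The values ran from 0.08 to 1.06. Bilberry was 0.95 above DMSO, the control array, by the same median. The 75th percentile of the sample's own probes was lower with bilberry by a log2 difference of -0.81. A cause was not tested.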

How the results depend on the processing

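The main counts were 701 higher and 787 lower probes, with a median difference of 0.15. Normexp background correction gave 291 higher and 405 lower, and cyclic loess gave 451 higher. Spike-in scaling gave 14 higher, 19327 lower and a median of -1.63. Cyanidin alone gave 1207 higher, and a required difference from DMSO as well gave 360. Probes well above background on at least 1 array gave 1074 higher and 1270 lower, probes above the 25th percentile on all 3 gave 209 and 480, and removal of a band of array rows, which leaves fewer probes, gave 357 and 430. Thresholds of 1.5 and 3 gave 2546 and 108 higher, and 1912 and 227 lower. Probes at or above the 75th percentile, chosen after seeing the data, gave 81 and 246. The other counts, with the strict rule on marked spots that was also added later, stayed within 1.5 times. Of the 235 higher genes, 151 were still past 2-fold under cyclic loess, 116 under normexp and 175 under quantile normalization. Of the 400 lower genes these numbers were 400, 248 and 398. Under spike-in scaling, 5 of the 235 higher genes and all 400 lower genes were still past 2-fold. Only 45 of the 235 higher genes had a difference above 0 there. All 12 top higher genes, and Kif20b, Ccdc66, Cntln and Sclt1 of the lower ones, had smaller differences under normexp. Values relative to the median gene cannot change under spike-in or median scaling, which move all genes alike. On this measure, no called gene named by the rule changed sign under any setting that kept it. Cebpa, Prkaa1 and Fasn, which were not called, did under some. The causes of these shifts were not tested. With 1 array per condition no sample could be left out. No paired analysis was possible because each group had 1 sample.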

Other observations

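Probes that were well above background on 1 side only give bounds. With both anthocyanidins but not with bilberry, 1632 probes were well above background, and 85 of them had a bound over 2-fold against each. Bod1l, which protects stalled replication forks, was at least 13.7-fold lower with bilberry, with DMSO at -1.49 beside -1.61 with delphinidin and -1.79 with cyanidin. Upf2, a factor of nonsense-mediated decay, and Eea1, an endosomal tether, were at least 7.59-fold and 6.79-fold lower. With bilberry only, 262 probes were well above background, and all 262 had a bound over 2-fold against each anthocyanidin. Dpp6, a potassium channel subunit, Olfr876, an odorant receptor, and Avpr2, the vasopressin V2 receptor, were at least 46.9-fold, 52.3-fold and 35.6-fold higher, and none of these probes was well above background with either anthocyanidin. Each bound compares the bright side with the dim probe or with the detection limit of the dim array, whichever was higher. That limit was -5.47 with bilberry and -6.54 with delphinidin and with cyanidin. The higher limit with bilberry bears on both counts of bounds over 2-fold, which are therefore no measure of direction.

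The Klra genes, lectin-like receptors known from natural killer cells, were lower at 8 of 14 probes, beside 3.61% of all probes, at a median level of -3.13 over the compared probes, with DMSO above the anthocyanidins by a median of 0.82. They are near-identical copies, and under normexp none of these probes was past 2-fold. Among chemokines, Cxcl5 was lower at -3.33 with bilberry, -2.32 with delphinidin, -2.30 with cyanidin and -1.58 with DMSO, and 17 of 22 chemokines and cytokines lay below the median gene. Among interferon-stimulated genes, Ifi44 was lower at -4.60 with bilberry, -3.43 with delphinidin, -3.25 with cyanidin and -2.46 with DMSO. Slc7a3, a cationic amino acid transporter, was lower at -4.04 with bilberry, -2.46 with delphinidin, -2.24 with cyanidin and -1.79 with DMSO, while the median of the amino acid response list was 0.14 relative to all genes.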
